A study of Mus musculus with 12 samples.

Results

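Type II cadherins are single-pass membrane proteins that hold cells together in the presence of calcium. Their outermost extracellular domain swaps a strand anchored by conserved tryptophans with a cadherin on the neighbouring cell, and their cytoplasmic tail binds catenins, which connect it to actin. Family members bind themselves and a restricted set of relatives, and in the developing nervous system each is expressed in particular neurons, where the combination contributes to the sorting of nuclei and the matching of axons to targets. The 10 genes examined, of 24480 in each count table, were chosen by symbol and comprise *Cdh6*, *Cdh9* and *Cdh10*, which form one adhesive group, *Cdh8* and *Cdh11*, which form another, and *Cdh7*, *Cdh12*, *Cdh18*, *Cdh20* and *Cdh22*, which form the largest. All 10 were measured in both lines and passed the filter on low counts there.

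The data were 12 RNA-seq libraries of the mouse dorsal lateral geniculate nucleus (dLGN), the thalamic relay of retinal input, dissected on the day of birth (P0). They fell into 4 groups of 3, and each library was an independent pool of dLGNs from 3 animals. Mutants were homozygous for a floxed allele, Sox2flox/flox or Nr2f1 flox/flox, and carried Ror-alphaCre. Cre in this allele is translated from an internal ribosome entry site in the 3′ untranslated region of *Rora*, so deletion occurs in cells that express *Rora*, a gene of thalamic neurons after their last division. Controls were littermates, Sox2flox/flox or Sox2flox/+ in one line and, according to the methods, homozygous or heterozygous floxed in the other. None of them carried Cre, although the label of the *Nr2f1* controls also names the Cre allele. The effect of carrying Cre and that of the deletion therefore cannot be told apart in either line. *Sox2* encodes a transcription factor of the SOX family and *Nr2f1* an orphan nuclear receptor.

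Total counts per library were between 39293465 and 50095344. The deleted gene had been reduced but not lost. *Sox2* was at 361, 363 and 382 CPM (counts scaled to library size after TMM normalization) in controls of its line and at 116, 150.4 and 151.6 CPM in mutants. *Nr2f1* was at 311, 370.4 and 380.1 CPM in controls of its line and at 105, 151 and 101 CPM in mutants, the highest of which was mutant B. Libraries are named as in the columns of the count tables. Each deletion also came with a change of another gene of this set. *Sox2* was at 238, 279 and 212 CPM in the *Nr2f1* mutants A, B and C against 343 to 374 CPM in their controls. *Rora*, the host of Cre, was at 25.6% of its mean control level in *Sox2* mutants and at 84.0% in *Nr2f1* mutants. *Nr2f1* was at 227, 313 and 221 CPM in *Sox2* mutants 1, 3 and 4 against 308 to 345 CPM in their controls. This *Nr2f1* value and that of *Rora* in *Nr2f1* mutants overlapped controls and did not pass the edgeR quasi-likelihood F-test used below (FDR = 0.0559 and 0.204). Of the 59 cell type markers examined, 0 were at 0 counts in a library, so the tissue held neurons, glia, vessels and meninges in every pool. In *Sox2* mutants the summed CPM of the astrocyte (2503 to 2895 against 1633 to 2034), microglial (205 to 235 against 94.8 to 109), GABAergic (136 to 185 against 74.7 to 119) and oligodendrocyte lineage markers (705 to 815 against 571 to 696) did not overlap those of controls. In *Nr2f1* mutants the same was true of the astrocyte (1538 to 1710 against 1425 to 1458), microglial (94.1 to 124 against 73.4 to 84.6), oligodendrocyte lineage (523 to 559 against 489 to 509) and endothelial lists (188.9 to 255 against 160.1 to 188.2), which were higher. The habenular sum was lower there (21.1 to 29.4 against 35.4 to 45.5), and nearly all of it was *Nwd2* (38.0 CPM in controls and 23.0 in mutants). The list's median log2 fold change was 0.67 over the 3 of its 4 markers that were tested. That median rests on genes near the floor, *Pou4f1* (0.65 CPM in controls) and *Gng8* (3 to 40 counts over all libraries). *Tac2* (2 to 11 counts) was not tested. Of these lists, 5 of 7 astrocyte, 5 of 6 microglial and 1 of 7 oligodendrocyte lineage markers passed the test used below in *Sox2* mutants. In *Nr2f1* mutants 1 of 7 astrocyte, 1 of 7 oligodendrocyte lineage, 0 of 6 microglial and 0 of 5 endothelial markers passed. Of the GABAergic markers, 0 of 6 passed in either line. Thalamic glutamatergic markers differed among themselves. In *Sox2* mutants 5 of the 8 were downregulated, namely *Slc17a6* (51.4% of control), *Lef1* (53.2%), *Prox1* (55.8%), *Lhx9* (74.2%) and *Rora*, and *Gbx2* (319%) was upregulated, with a median log2 fold change of -0.64. In *Nr2f1* mutants *Lef1* (61.7%) was downregulated, *Prox1* (214%) and *Lhx2* (137%) were upregulated, and the median was 0.11. Their sum without *Rora*, of which *Tcf7l2* was the largest part, was 1348 to 1369 CPM in *Sox2* mutants against 1338 to 1723 in controls. In *Nr2f1* mutants it was 1639 to 1869 against 1630 to 1807 in controls. The sums overlapped, although the markers given above as downregulated or upregulated did not. In the *Sox2* line they overlapped only through control 3 (1338 CPM), since the other controls were at 1590 and 1723. In bulk tissue, fewer cells of a type and less RNA per cell cannot be told apart, and the part of cell composition in the changes below was not tested.

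A few libraries stood apart. Control 3 of the *Sox2* line had the lowest thalamic sum of its group (1338 CPM, against 1590 and 1723) and the highest meningeal sum (1836 CPM, against 916 and 926), and mutant 3 had the highest meningeal sum of the 12 (3194 CPM). The sum of pallial neuron markers was 100.9, 25.4 and 59.7 CPM in *Sox2* mutants 1, 3 and 4, against 13.8 to 36.2 in their controls. In the *Nr2f1* line it was 16.2 to 23.4 CPM in mutants and 18.5 to 23.8 in controls. In the *Nr2f1* line the meningeal sum was 1923 and 2361 CPM in mutants A and C, against 701 to 1066 in controls and 1015 in mutant B. Male-specific genes summed to 0 CPM in mutant A, which was therefore a pool of females, and to 32.5 and 52.1 in the other mutants, against 43.6 to 97.4 in controls of that line. In the *Sox2* line they summed to 54.3 to 110.2 CPM in mutants and 33.6 to 113.7 in controls.

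Levels of different genes were compared as CPM per kilobase of the longest RefSeq transcript. In controls the same order was found in both lines, with *Cdh8* first (32.0 ± 5.20 CPM per kb in *Sox2* and 38.9 ± 4.27 in *Nr2f1* controls, SD, n = 3), followed by *Cdh11* (24.8 and 25.8) and *Cdh10* (15.9 and 14.4). These were followed by *Cdh6* (7.59 and 8.96), *Cdh7* (6.46 and 7.51), *Cdh22* (5.55 and 5.05) and *Cdh20* (4.04 and 3.42). *Cdh18* (1.44 and 1.84), *Cdh12* (1.29 and 1.44) and *Cdh9* (0.682 and 0.819) were lowest. Each gene lay above the next in all 3 control libraries of each line. The ranges over libraries overlapped only in the *Sox2* line, between *Cdh6* and *Cdh7*, *Cdh7* and *Cdh22*, and *Cdh18* and *Cdh12*. The summed level of the 10 genes came mostly from *Cdh8*, *Cdh11* and *Cdh10*, which made up 32.0%, 24.9% and 15.9% of the summed level in the *Sox2* controls and 35.9%, 23.8% and 13.3% in the *Nr2f1* controls.

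**Figure D1:**
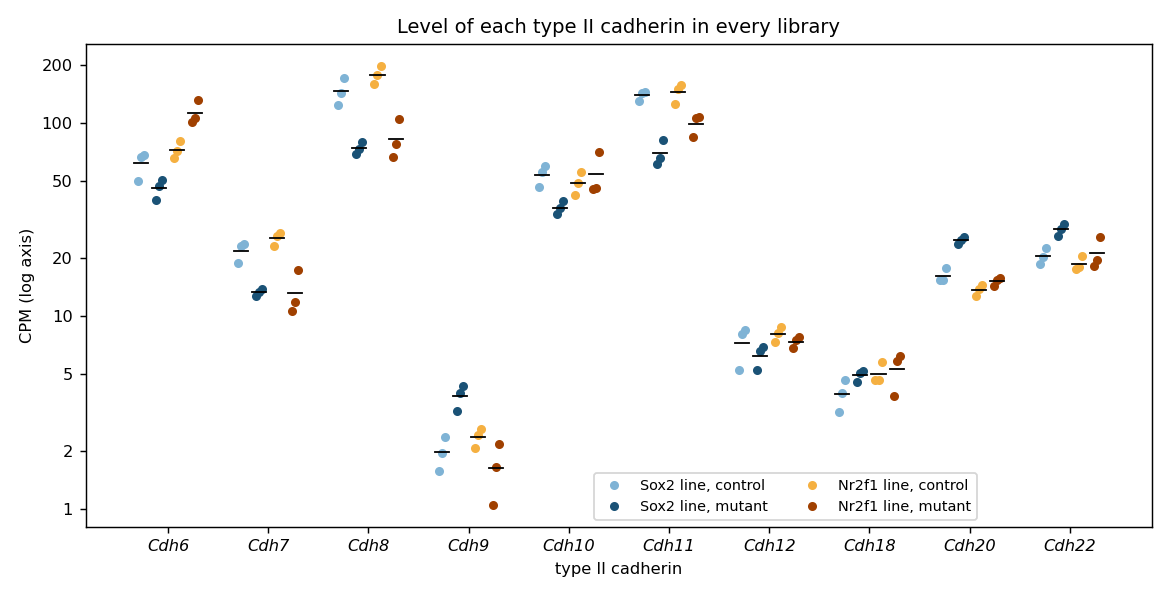
CPM of each type II cadherin (log axis) in the 12 libraries. Points are single libraries of 3 pooled animals, colours are the 4 groups and black bars are group means. *Cdh8* and *Cdh7* were lower in all mutants than in all controls of both lines, whereas *Cdh6* was higher in the *Nr2f1* mutants (101 to 132 CPM) than in their controls (66.5 to 80.9 CPM).

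Most of these genes lie in clusters (RefSeq, GRCm38). *Cdh6* (chr15:13028699-13176407), *Cdh9* (chr15:16728550-16857138), *Cdh10* (chr15:18818869-19016206), *Cdh12* (chr15:20448878-21598421) and *Cdh18* (chr15:22548898-23477491) follow each other with 0 annotated protein-coding genes between neighbours, at gaps of 3.55, 1.96, 1.43 and 0.950 Mb. *Cdh8* (chr8:99024471-99417666) and *Cdh11* (chr8:102632095-102785493) are likewise adjacent, 3.21 Mb apart. *Cdh20* (chr1:104768340-104995481) and *Cdh7* (chr1:109982237-110145272) are 4.99 Mb apart with 21 protein-coding genes between them, and *Cdh22* (chr2:165111501-165234924) stands alone.

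The 250 bases before the start site were searched on both strands for the SOX cores ACAAAG and ACAATG and for the nuclear receptor site AGGTCA in the RefSeq promoter table (GRCm38.p6), which held 11 entries for 9 of the 10 genes. Matches were found in 3 entries. They are shown, read along the strand of the gene, because SOX2 and NR2F1 belong to families that bind such letters. Capitals mark the match, and 12 bases on each side are given.
Cdh7, chr1:109983663-109983692, plus strand, SOX core on the other strand: tccacttcgcctCTTTGTacctttggtgtg
Cdh6, chr15:13173710-13173739, minus strand, SOX core: tgggcctctgtaACAAAGtcctcctctctt
Cdh18, chr15:23036223-23036252, plus strand, receptor site on the other strand: ttgctttctgtgTGACCTtgtctatgggac
The first matched base was at -48 from the start in *Cdh7* (in 1 of its 3 entries), at -52 in *Cdh6* and at -228 in *Cdh18*. All 3 windows lie inside the span of their gene given above, so these starts are internal to the annotated gene. Of the windows shown, 1 lies within a transcript of its gene. ACAAAG was present in 16.5%, ACAATG in 10.7%, either of them in 25.2% and AGGTCA in 14.0% of all 32851 promoter entries, so 2 genes of 9 with a SOX core is near the share of promoters at large. The entry of *Cdh8* held none of these letters in this window. A match is a description of the letters and not of binding.

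In *Sox2* mutants, 4 of the 10 genes were downregulated and 1 was upregulated at FDR<0.01 (edgeR quasi-likelihood F-test, Benjamini-Hochberg adjusted over all genes). The libraries of mutants and controls did not overlap for 7 of the 10. Over all 15602 genes tested, 4.19% were downregulated, 3.9% were upregulated and 37.9% did not overlap. The median log2 fold change of the 10 genes was -0.33, against 0.00 for all genes. *Cdh8* and *Cdh11*, the most abundant members, were at 50.5% and 49.9% of their mean control level, *Cdh7* and *Cdh10* fell less, and *Cdh20* rose.

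*Cdh8* encodes a homophilic cadherin found at synapses of specific circuits, among them bipolar cell types of the retina. It was at 172, 144 and 124 CPM in *Sox2* controls and at 69.0, 79.6 and 73.8 CPM in mutants. Every mutant was below every control, and the controls varied more (CV 16.3%) than the mutants (7.2%). The log2 fold change was -0.99 (SE 0.11, 95% interval -1.24 to -0.74, FDR = 4.28e-04). *Cdh11*, also abundant in mesenchyme and meninges, was at 145, 144 and 131 CPM in controls and at 61.6, 82.2 and 65.9 CPM in mutants (log2 fold change -1.002, SE 0.10, FDR = 2.82e-04). Its groups did not overlap. Its highest mutant was mutant 3, the library with the highest meningeal sum. Its lowest control was control 3, which had the highest meningeal sum of these controls. In the *Nr2f1* line its lowest library was mutant C, which had the highest meningeal sum of that line. The part of meninges in these values was not tested. The deposited estimates of *Cdh11* were not whole numbers in 11 of the 12 libraries, so some of its reads were shared, to an extent that the estimates do not give. Those of the other 9 genes were whole throughout.

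*Cdh10*, a close relative of *Cdh6*, was at 55.7, 59.9 and 46.7 CPM in *Sox2* controls and at 36.2, 39.7 and 33.9 CPM in mutants, a log2 fold change of -0.56 (SE 0.10, FDR = 0.00530). *Cdh7* was at 23.0, 23.7 and 19.0 CPM in controls and at 12.7, 13.8 and 13.4 CPM in mutants, a log2 fold change of -0.72 (SE 0.11, FDR = 0.00186). For both, control 3 was the lowest control and still lay above every mutant. *Cdh20*, which belongs to the adhesive group of *Cdh7*, was at 15.4, 15.4 and 17.8 CPM in controls and at 23.6, 24.8 and 25.8 CPM in mutants (log2 fold change 0.61, SE 0.09, FDR = 0.00218). The astrocyte and microglial sums were higher in the same libraries, and their part in the rise was not tested.

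The other 5 genes did not pass in *Sox2* mutants. *Cdh9*, a cadherin of hippocampal mossy fibre synapses, was at 2.37, 1.96 and 1.58 CPM in controls and 4.33, 4.03 and 3.23 CPM in mutants (log2 fold change 0.97, SE 0.21, FDR = 0.0114). Its highest library, mutant 1, also had the highest pallial sum, whose part in the *Cdh9* values was not tested. *Cdh22* was at 18.7, 22.6 and 20.4 CPM in controls and 30.2, 28.4 and 26.0 CPM in mutants (log2 fold change 0.46, SE 0.10, FDR = 0.0112). For both genes the groups did not overlap, and both passed with upper quartile normalization, which gave 4 downregulated and 3 upregulated members. Over all genes it gave 565 downregulated and 749 upregulated, against 653 and 608 with TMM. *Cdh6*, which marks retinal neurons that project to non-image-forming nuclei and guides their targeting, was at 66.8, 68.7 and 50.5 CPM in controls and 50.7, 39.9 and 47.5 CPM in mutants (log2 fold change -0.43, SE 0.13, FDR = 0.0410). Its lowest control overlapped its highest mutant. *Cdh12* (log2 fold change -0.22, 95% interval -0.65 to 0.21) and *Cdh18* (0.32, -0.06 to 0.71) overlapped between groups, and intervals of this width do not exclude changes as large as that of *Cdh10* for the first and of *Cdh20* for the second.

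Control 3 had the lowest CPM of its group for *Cdh6*, *Cdh7*, *Cdh8*, *Cdh9*, *Cdh10*, *Cdh11*, *Cdh12* and *Cdh18*, and the highest for *Cdh20*. Without it, the log2 fold changes were -1.08 for *Cdh8*, -1.04 for *Cdh11*, -0.80 for *Cdh7*, -0.65 for *Cdh10* and 0.69 for *Cdh20*, and *Cdh6* also passed (-0.55, FDR = 0.00328 by the same test). The calls of *Cdh7*, *Cdh10* and *Cdh20* were lost without control 1 (-0.68, -0.54 and 0.57), control 2 (-0.66, -0.48 and 0.57) or mutant 4 (-0.72, -0.51 and 0.58), and that of *Cdh10* also without mutant 1 (-0.55). *Cdh8* and *Cdh11* passed whichever library was left out.

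**Figure D2:**
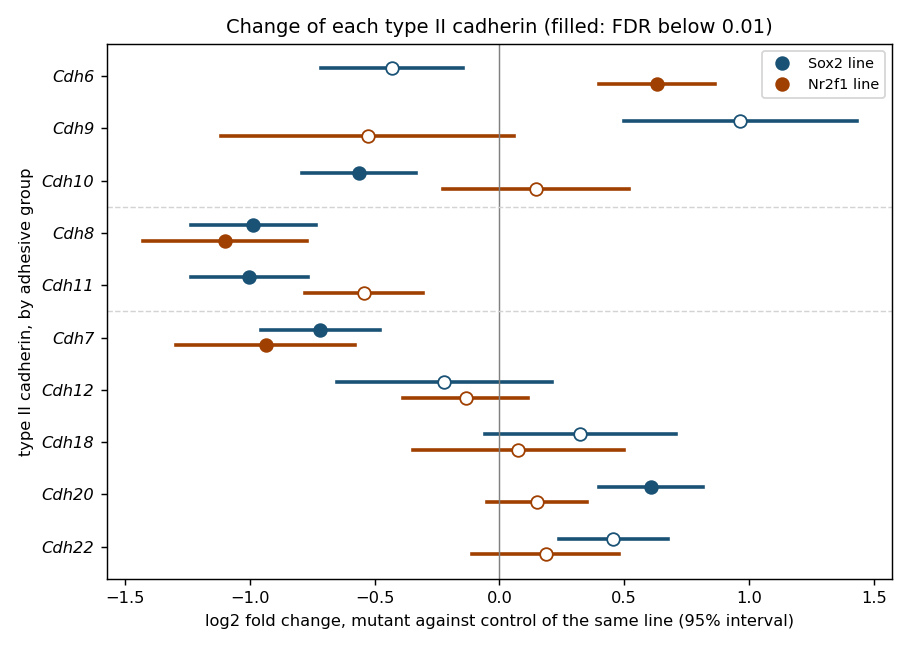
Log2 fold change of each type II cadherin in mutants against controls of the same line, with 95% intervals from edgeR (n = 3 pools per group). Filled points had FDR<0.01 and dashed lines separate the adhesive groups. *Cdh8* and *Cdh7* have filled points left of 0 in both lines, and *Cdh6* lies at -0.43 in *Sox2* and at 0.63 in *Nr2f1* mutants.

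In *Nr2f1* mutants, 2 of the 10 genes were downregulated, 1 was upregulated and 4 did not overlap between groups. Over all 15600 genes tested, 1.32% were downregulated, 1.22% were upregulated and 28.6% did not overlap. The median log2 fold change of the 10 genes was -0.03, against 0.01 for all genes. *Cdh8* and *Cdh7* fell again, to 46.6% and 52.1% of their mean control level, and *Cdh6* rose to 155%.

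*Cdh8* was at 178, 159 and 198 CPM in *Nr2f1* controls and at 77.9, 105 and 66.6 CPM in mutants A, B and C (log2 fold change -1.10, SE 0.15, 95% interval -1.43 to -0.77, FDR = 0.00251). *Cdh7* was at 27.1, 23.3 and 26.1 CPM in controls and at 11.8, 17.3 and 10.7 CPM in mutants (log2 fold change -0.94, SE 0.16, FDR = 0.00842). For both, every mutant lay below every control and mutant B was the highest mutant. *Cdh6* was at 72.1, 66.5 and 80.9 CPM in controls and at 132, 101 and 107 CPM in mutants, all above the controls (log2 fold change 0.63, SE 0.10, FDR = 0.00703).

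*Cdh11* was at 159, 126 and 151 CPM in *Nr2f1* controls and at 106, 108 and 85.1 CPM in mutants. The groups did not overlap, but the change of -0.54 (SE 0.10, 95% interval -0.78 to -0.31) did not pass (FDR = 0.0147). *Cdh10* was at 48.8, 42.6 and 56.0 CPM in controls and at 46.2, 71.2 and 45.8 CPM in mutants, where mutant B was above every control and the others were within their range (log2 fold change 0.15, 95% interval -0.22 to 0.52, FDR = 0.639). *Cdh9* was at 2.59, 2.42 and 2.09 CPM in controls and at 1.05, 2.19 and 1.66 CPM in mutants (log2 fold change -0.53, 95% interval -1.11 to 0.06, FDR = 0.251). The remaining members, *Cdh12* (-0.14, 95% interval -0.39 to 0.12), *Cdh18* (0.08, -0.35 to 0.50), *Cdh20* (0.15, -0.05 to 0.35) and *Cdh22* (0.18, -0.11 to 0.48), overlapped between groups.

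The spread among *Nr2f1* mutants was wider than among their controls for 8 of the 10 genes, among them *Cdh8* (CV 23.8% against 11.0%), *Cdh7* (26.6% against 7.8%), *Cdh10* (26.8% against 13.7%) and *Cdh9* (34.8% against 10.9%). In these 4, mutant B was the highest of the mutants, as in 6 of the 10 genes. In *Cdh18* (CV 23.8% against 12.7%), *Cdh22* (19.2% against 8.9%) and *Cdh6* (14.6% against 9.9%) it was the lowest. *Nr2f1* itself was highest in mutant B, at 42.6% of the control mean against 29.7% and 28.7% in mutants A and C. *Cdh8* in mutants A, B and C was at 43.6%, 58.9% and 37.3% of the control mean, and *Cdh7* at 46.4%, 68.0% and 42.0%. Mutant B was also the mutant with the lowest meningeal and GABAergic sums, and whether residual *Nr2f1* or composition had a part was not tested.

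The calls in the *Nr2f1* line depended on single libraries more than those in the *Sox2* line. *Cdh8* did not pass without control B (-1.11), control E (-1.02) or mutant A (-1.06). *Cdh7* passed only without mutant B (-1.18) and lay at -0.80 or lower without each other library. *Cdh6* likewise passed only without mutant B (0.70), and was at 0.51 without mutant A, the pool with 0 male-specific CPM, and at 0.62, 0.57, 0.71 and 0.67 without control B, D or E or mutant C. *Cdh11* passed without mutant B (-0.60, FDR = 0.00774 by the same test). With the male-specific sum as a covariate, 0 of the 10 genes passed, although *Cdh8* (-1.05, FDR = 0.0327), *Cdh7* (-0.86, FDR = 0.0760) and *Cdh6* (0.49, FDR = 0.0415, all by the same test) kept their direction. The total over all genes in that fit is not given here, so the lost calls cannot be set against those of all genes.

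**Figure D3:**
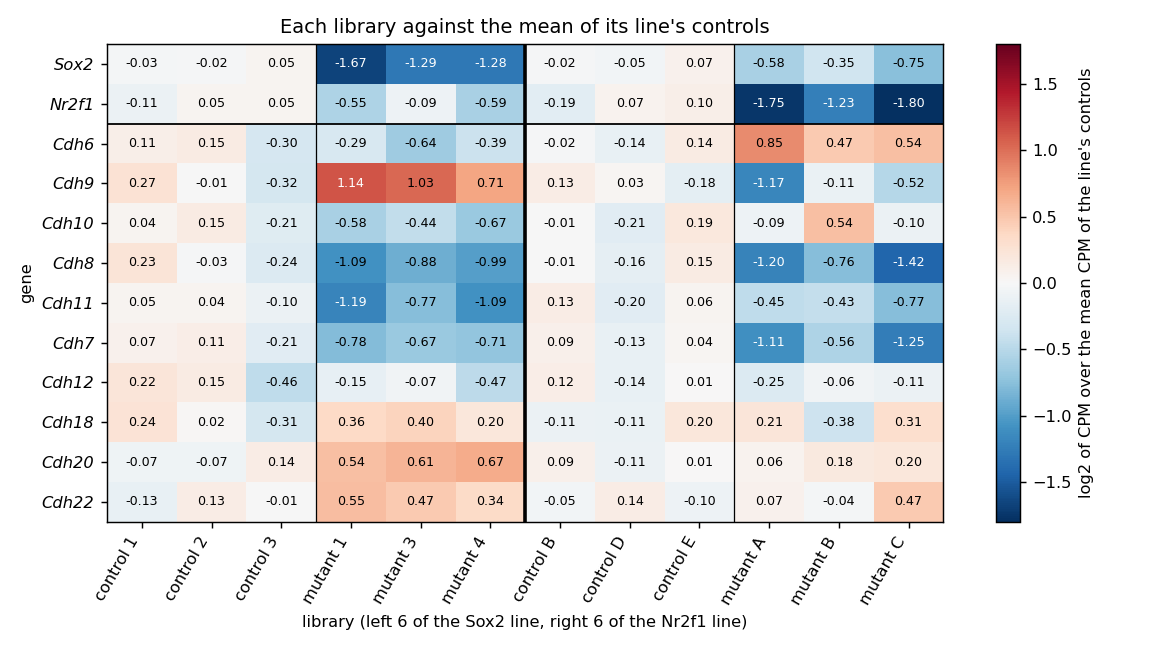
Log2 of the CPM in each library over the mean CPM of the controls of its line, for the deleted genes (top) and the 10 type II cadherins, grouped by adhesive group. Blue is below and red above the control mean. *Cdh8*, *Cdh11* and *Cdh7* are below it in all 6 mutants, *Cdh6* is below it in the 3 *Sox2* mutants and above it in the 3 *Nr2f1* mutants, and mutant B is the palest of the *Nr2f1* mutants for *Nr2f1*, *Cdh8* and *Cdh7*.

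Both lines together showed 2 of the 10 genes, *Cdh8* and *Cdh7*, downregulated in each, where 0.76% of the 15397 genes tested in both were. The lines have separate controls, and whether the changes differed was asked of the line-by-genotype interaction, in which 1.44% of 15989 genes passed in either direction. *Cdh6* was the 1 member that passed, with a difference of -1.05, the *Nr2f1* log2 fold change subtracted from the *Sox2* one (SE 0.18, 95% interval -1.44 to -0.66, FDR = 0.00467). This call was lost without control 1, control 2, mutant 3 or mutant 4 of the *Sox2* line or control B, control D or mutant A of the *Nr2f1* line, when the difference lay between -1.07 and -0.92, and also with the male-specific covariate (-0.92, FDR = 0.0318 by the same test). *Cdh9* (difference 1.50, SE 0.34, FDR = 0.0274), *Cdh10* (-0.70, SE 0.22, FDR = 0.113), *Cdh20* (0.47, SE 0.13, FDR = 0.0621) and *Cdh11* (-0.45, SE 0.17, FDR = 0.180) did not pass, so a call in one line alone does not show that the lines differed for these. For *Cdh8* the difference was 0.12 (95% interval -0.32 to 0.57) and for *Cdh7* 0.23 (-0.22 to 0.68). These intervals do not exclude a difference of the size seen for *Cdh20*.

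By chromosomal cluster and adhesive group the changes were as follows. On chromosome 15, *Cdh10* fell and its neighbour *Cdh9* had a positive log2 fold change in *Sox2* mutants, and *Cdh6* was the 1 gene of the 5 that passed in *Nr2f1* mutants. On chromosome 1, *Cdh7* fell and *Cdh20* rose in *Sox2* mutants. On chromosome 8, *Cdh8* and *Cdh11*, which also share an adhesive group, both fell in *Sox2* mutants and both had negative values in *Nr2f1* mutants. Other type II cadherins near them in position or kinship did not go the same way. *Cdh5* lies 1.32 Mb from *Cdh11* with 0 protein-coding genes between. Its values were positive and did not pass (0.52 in *Sox2* and 0.65 in *Nr2f1* mutants). *Cdh24*, a relative of *Cdh8* and *Cdh11*, had 0.12 in *Sox2* mutants and was upregulated in *Nr2f1* mutants (0.70). No test was made of whether the genes of a cluster or group moved together. In the adhesive group of *Cdh7*, that gene was the 1 of 5 downregulated in each line.

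The summed level of the 10 genes per transcript length was 99.7 ± 10.1 CPM per kb in *Sox2* controls and 66.9 ± 3.48 in mutants (67.1% of control), and 108.07 ± 9.94 in *Nr2f1* controls and 82.9 ± 9.28 in mutants (76.7%). All mutants were below all controls in both lines. *Cdh5*, of endothelial cells, and *Cdh24* are type II cadherins outside these 10, and *Cdh5* was at 14.2 and 12.5 CPM per kb in *Sox2* and *Nr2f1* controls and at 20.3 and 19.6 in mutants. With them and *Cdh19*, the sum of 13 genes was 78.3% of control in *Sox2* and 88.5% in *Nr2f1* mutants, where mutants and controls still did not overlap, and every share given here is smaller. Of the 10 genes' sum in *Sox2* mutants, the share of *Cdh8* was 24.1% ± 0.93 (32.0% ± 2.50 in controls) and that of *Cdh11* 18.5% ± 1.92 (24.9% ± 1.15). *Cdh22* (11.4% ± 0.96 against 5.61% ± 0.80) and *Cdh20* (9.23% ± 0.64 against 4.11% ± 0.80) had larger shares, and *Cdh10* was at 16.1% ± 0.57 against 15.9% ± 0.95. Of the sum of 13 genes, the share of *Cdh10* was 11.4% in *Sox2* mutants against 13.2% in controls. In *Nr2f1* mutants the share of *Cdh8* was 21.6% ± 2.69 (35.9% ± 1.07 in controls), and *Cdh6* had 16.9% ± 3.28 (8.29% ± 0.28) and *Cdh10* 19.1% ± 3.09 (13.3% ± 0.69). These are shares of one sum, in which the rise of one gene lowers the others, and no test was made of them.

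**Figure D4:**
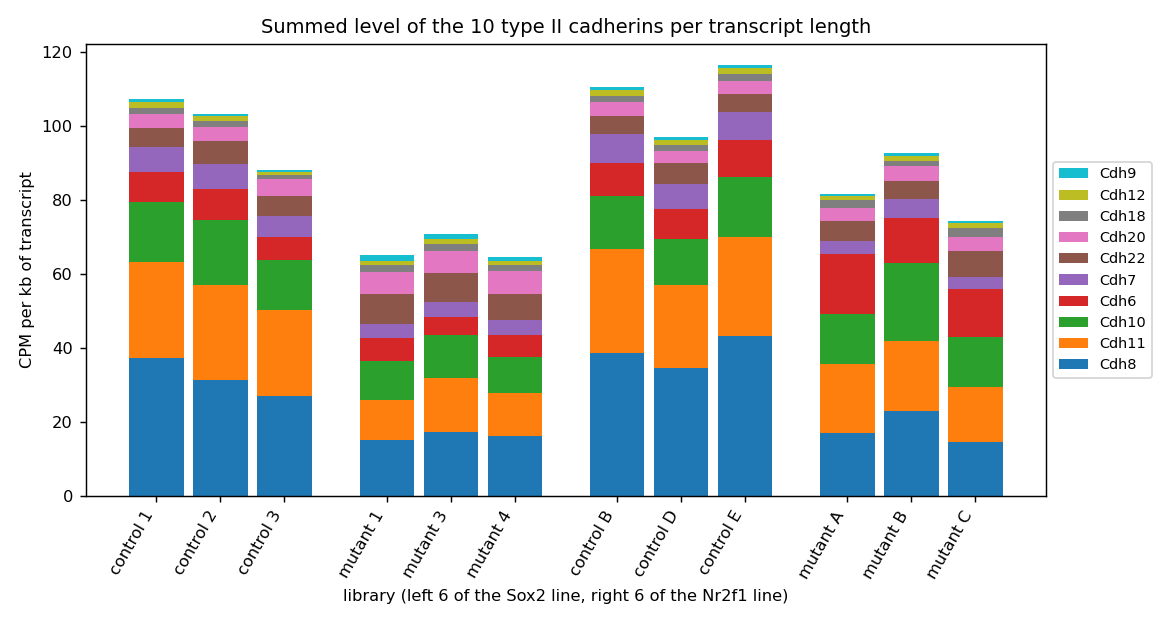
Summed CPM per kb of the 10 type II cadherins in each library, stacked by gene. The bars of all mutants (64.6 to 70.9 for *Sox2* and 74.3 to 92.7 for *Nr2f1*) are lower than those of their controls (88.3 to 107.4 and 97.1 to 116.5), chiefly in the blue and orange segments of *Cdh8* and *Cdh11*.

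Of the 3 other type II cadherins, *Cdh24*, a relative of *Cdh8* and *Cdh11*, was upregulated in *Nr2f1* mutants, from 19.9, 23.4 and 16.5 CPM in controls to 33.8, 30.8 and 33.0 CPM (log2 fold change 0.70, SE 0.12, FDR = 0.00692). In *Sox2* mutants its value was 0.12 (FDR = 0.448), and the difference between lines did not pass (-0.58, FDR = 0.0859, all by the same test). The endothelial cadherin *Cdh5* had positive values that did not pass (0.52 in *Sox2* and 0.65 in *Nr2f1* mutants), and *Cdh19* was too low to be tested in either line. Among 8 other cadherins, of which 7 were tested, 1 passed in each line. The type I cadherin *Cdh4* (R-cadherin) rose in *Sox2* mutants from 58.1 ± 9.58 to 136 ± 5.30 CPM (log2 fold change 1.23, SE 0.11, FDR = 1.30e-04), and the lipid-anchored *Cdh13* (T-cadherin) rose in *Nr2f1* mutants from 42.2 ± 2.89 to 89.0 ± 9.17 CPM (1.08, SE 0.08, FDR = 1.69e-04). The difference between lines did not pass for *Cdh4* (0.95, FDR = 0.0112) or *Cdh13* (-0.75, FDR = 0.0204). Of 13 cytoplasmic partners and proteases, *Ctnnd2*, the neuronal delta-catenin that binds the cadherin tail, was downregulated in *Sox2* mutants (464 ± 23.5 to 366 ± 13.2 CPM, log2 fold change -0.34, SE 0.07, FDR = 0.00856) and had -0.20 in *Nr2f1* mutants (FDR = 0.0967). The other 12 did not pass in either line, including *Ctnnb1*, beta-catenin, with intervals of -0.17 to 0.13 in *Sox2* and -0.05 to 0.15 in *Nr2f1* mutants.

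The genes whose levels most resembled those of the members over the 12 libraries were listed by Pearson's r of log2 CPM, as a description, since the points share 4 groups. *Cdh7* and *Cdh8* were among each other's 3 most similar genes of 15396 (r = 0.980, and 0.896 within groups). *Cdh8* also resembled *Phf20* (0.986) and *Grid1* (0.980), and *Cdh7* resembled *Epha4* (0.982) and *Atrnl1* (0.974). *Cdh6* was closest to *Prox1* (0.978), *Large* (0.975) and *Hrk* (0.971), *Cdh11* to *Pcdhac1* (0.983), *Sox5* (0.980) and *Col26a1* (0.978), and *Cdh20* to *Gna15* (0.988) and *Krcc1* (0.982). For *Cdh10* the closest gene, *Zc2hc1c*, reached 0.916.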

How the data were processed

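RNA-seq had been made by the authors from pooled dLGN RNA. Per the methods and the submitters' processing notes (STAR, mm10), the authors mapped paired reads with STAR to the RefSeq transcriptome, and the values they deposited are RSEM expected counts per gene, without normalization, in 1 table per line. Of these, 7.77% were not whole and were rounded. Columns name the group, and their numbers are not those of the sample titles.

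Counts were filtered (filterByExpr, minimum count 10, minimum total 15), normalized by TMM and tested in edgeR 4.0.16 (R 4.3.3) by its quasi-likelihood F-test, each line against its own controls (6 libraries), and by the line-by-genotype interaction (12 libraries). A gene passed at FDR<0.01, where FDR is the p-value adjusted by Benjamini-Hochberg over all genes tested. An exact permutation test of 3 against 3 cannot give a p below 0.1. Values are CPM, as mean ± SD where given, and SE is the log2 fold change over the root of F. P-values measure the spread between pools. Strand was not given in the sources used here, and *Cdh8* and *Cdh12* overlap other genes of the tables. CPM per kb used GENCODE M21 transcripts matched to RefSeq.

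All 10 members were named, and genes of the other cadherin and partner lists where they passed. Likeness was taken for genes that passed, as the 3 with the highest r, of which 1 is not reported here. The members and lists were chosen with earlier results of these data known. Alternatives were other filters, normalizations and tests (DESeq2 1.42.0 among them), FDR<0.05, one fit over 12 libraries, a replicate block, leaving out each library, and, added after seeing the data, the male-specific covariate and the sum over 13 type II cadherins.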

Additional observations from a re-analysis of the deposited data

Results flagged for a closer look

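The response of *Cdh6* differed between the lines by a test of the difference itself. The *Nr2f1* log2 fold change subtracted from the *Sox2* one gave -1.05 (SE 0.18, edgeR line-by-genotype interaction, FDR = 0.00467). It was below the control mean in 3 of 3 *Sox2* mutants and above it in 3 of 3 *Nr2f1* mutants. The *Sox2* libraries overlapped between mutants and controls and the *Nr2f1* libraries did not.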

How the results depend on the processing

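Over the alternatives, each called member kept its direction in its line. *Cdh8* and *Cdh11* in *Sox2* mutants passed under 17 of 17, *Cdh7* and *Cdh20* under 14 and *Cdh10* under 12. In *Nr2f1* mutants *Cdh8* passed under 12 of 16, *Cdh7* and *Cdh6* under 10, and *Cdh6* for the difference between lines under 12 of 20. In the *Sox2* line 5 members passed, 8 with DESeq2 or at FDR<0.05, and 2 to 6 when a library was left out, with 2 without control 1, control 2 or mutant 4. In the *Nr2f1* line 3 passed, 0 with the male-specific covariate, and 0 to 4 when a library was left out (0 without control B, control E or mutant A, 1 without control D or mutant C, 4 without mutant B). For the difference 1 passed, 2 with DESeq2, the likelihood ratio test or at FDR<0.05, 0 with the covariate, and 0 to 1 when a library was left out. The cause of these shifts was not tested. Over all 13 type II cadherins the summed level per length was 78.3% and 88.5% of control in *Sox2* and *Nr2f1* mutants, against 67.1% and 76.7% over the 10. Over all genes the counts were 1261 and 2468 (DESeq2), 396 and 1112, and 231 and 544. For the other settings named in this section, totals over all genes are not given. The member counts there therefore cannot be set against those of all genes.

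The *Sox2* columns share replicate numbers 1 and 3, whose deviations correlated at 0.194 and 0.173. Over these 2 pairs a replicate block gave 7 members, but the samples may share only a number. It could not be fitted for the *Nr2f1* line or the difference, whose columns share 1 letter.

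With 3 pools a group, an SE near 0.10 limits calls in the *Sox2* line to log2 changes of about the size of *Cdh10* there (-0.56). In the *Nr2f1* line *Cdh11*, at -0.54 with an SE of 0.10, did not pass. For the difference between lines the members' SEs were larger, from 0.13 for *Cdh20* to 0.34 for *Cdh9*.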
